A study of Homo sapiens with 10 samples.

Results

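Transcript levels of 9 genes were compared across untreated cells of the prostate cancer lines LNCaP, DUCAP, VCAP, DU145 and PC3. The genes were the ETS transcription factors ERG, ETV1, ETV4, ETV5 and FLI1, which are known from rearrangements in prostate cancer, the fusion partner TMPRSS2, the epithelial ETS genes EHF and ELF3, and the secreted protease inhibitor SPINK1. They were taken as a fixed list of symbols, and all 9 were among the 60642 gene symbols of the expression table. Each line was profiled by polyA-enriched, strand-specific bulk RNA-seq in 2 biological repeats, 10 samples in all, during exponential growth in phenol-red free RPMI with fetal bovine serum. No sample received a drug or hormone treatment. LNCaP was the FGC clone, DUCAP came as a gift from another laboratory, and each line stands for a single tumour. VCAP and DUCAP are known as lines from metastases of the same patient that carry a TMPRSS2-ERG fusion.

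ETS factors bind DNA at a GGAA core through a shared domain and split into subgroups, among them the ERG and FLI1 pair and the PEA3 group of ETV1, ETV4 and ETV5. In many prostate tumours a rearrangement joins the start of an androgen-regulated gene, most often TMPRSS2, to the coding exons of an ETS gene that the luminal epithelium otherwise hardly transcribes. EHF and ELF3 belong to the normal epithelial programme, and raised SPINK1 has been described mostly in tumours without an ETS fusion.

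Promoter windows of RefSeq on GRCh38.p14, with 250 bases before and 50 bases after a start, were matched by symbol for 5 of the 9 genes. ETV4, ETV5, FLI1 and TMPRSS2 were not matched. The most upstream window is shown for 4 genes, ERG and SPINK1 because they were high in the same lines, EHF because it ranged from high to near 0, and ELF3 because it was present in every sample. All are given 5′ to 3′ on the strand of the gene. They lie at chr21:38660618-38660917 (minus strand) for ERG, chr5:147831622-147831921 (minus) for SPINK1, chr11:34624007-34624306 (plus) for EHF and chr1:202010337-202010636 (plus) for ELF3. Capitals mark the ETS core GGAA and its reverse complement TTCC.
ERG: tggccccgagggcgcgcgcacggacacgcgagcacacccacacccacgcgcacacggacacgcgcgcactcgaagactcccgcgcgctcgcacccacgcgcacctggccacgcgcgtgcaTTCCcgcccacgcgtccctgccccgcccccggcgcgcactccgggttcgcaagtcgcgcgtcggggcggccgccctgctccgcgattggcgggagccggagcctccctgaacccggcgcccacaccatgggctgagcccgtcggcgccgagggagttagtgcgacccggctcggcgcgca
SPINK1: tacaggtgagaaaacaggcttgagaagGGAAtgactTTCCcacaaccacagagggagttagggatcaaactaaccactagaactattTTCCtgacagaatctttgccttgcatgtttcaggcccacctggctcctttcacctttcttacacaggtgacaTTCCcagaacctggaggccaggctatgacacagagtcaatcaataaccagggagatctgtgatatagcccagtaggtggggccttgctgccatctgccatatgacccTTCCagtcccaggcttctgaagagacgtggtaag
EHF: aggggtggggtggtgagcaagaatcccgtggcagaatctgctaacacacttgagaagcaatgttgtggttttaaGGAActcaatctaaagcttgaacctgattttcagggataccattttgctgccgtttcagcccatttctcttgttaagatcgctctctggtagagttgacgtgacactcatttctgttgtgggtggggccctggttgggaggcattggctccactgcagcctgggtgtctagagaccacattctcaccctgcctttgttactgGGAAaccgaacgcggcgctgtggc
ELF3: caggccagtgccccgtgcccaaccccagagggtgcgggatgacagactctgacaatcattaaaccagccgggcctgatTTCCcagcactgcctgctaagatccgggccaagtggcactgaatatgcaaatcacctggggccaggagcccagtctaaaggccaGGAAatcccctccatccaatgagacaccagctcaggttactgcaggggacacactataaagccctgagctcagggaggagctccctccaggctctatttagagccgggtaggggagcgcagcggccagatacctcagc

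The core occurred 1 time in the window of ERG, 2 times in those of EHF and ELF3 and 5 times in that of SPINK1. Of 35116 RefSeq promoter windows of the same length, 95.5% held it at least once on either strand, with a median of 3. The longer motif CCGGAA, which contains the core, was in 17.2% of all windows and in none of these 4. It occurred 1 time in the matched window of ETV1, which is not shown. The TATA box letters TATAAA were in 11.5% of all windows and in that of ELF3. The ERG window was the richest in G and C, at 77.0% against 49.3% for SPINK1. In a TMPRSS2-ERG transcript the start is that of TMPRSS2, so the window printed for ERG is not the start of such a transcript, and gene-level values do not separate fused from unfused transcripts.

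The values are TPM, in which the transcript estimates of RSEM are scaled for gene length and to a common total per sample. TPM do not keep the number of reads, so the depth behind each value is unknown. Differences were tested with limma on log2(TPM + 1) for the 17520 genes that reached 1 TPM in 2 or more samples, with Benjamini-Hochberg adjustment over all of them and a threshold of 0.05. With the added 1, the fold changes of genes at low TPM come out too small. All 9 genes passed the filter, but ERG, FLI1, SPINK1, ETV4 and ETV5 did so only through the lines in which they were high. For these genes, the tests of those lines against the rest describe the difference and are not separate support for it. The same holds for genes named below from other lists that reached 1 TPM only on 1 side of a contrast. KLK2, PHLDA1, ETS1, ELF5 and PCP4 are among them. In bulk RNA a lower level in every cell and a smaller share of cells with the transcript cannot be told apart.

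TPM are shares, and mitochondrial transcripts took 32.1 to 36.0% of them in DUCAP and VCAP against 12.7 to 22.5% in the other samples. The median log2 difference of all tested genes was −0.59 when DUCAP and VCAP were set against the other 3 lines, and −0.40 when LNCaP, DUCAP and VCAP were set against DU145 and PC3. Quantile normalization moved these medians to −0.03 and 0.08, scaling by median ratios to −0.12 and −0.02, and leaving out mitochondrial genes to −0.40 and −0.22. The share of called genes that were higher moved with them, from 21.6 and 30.2% to 48.5 and 53.8%, 44.2 and 47.9%, and 31.5 and 38.7%.

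Lines differed in most of the transcriptome, which sets the background for the 9 genes. Of the tested genes, 79.1% were called between DUCAP with VCAP and the other 3 lines, and 74.4% between LNCaP, DUCAP and VCAP and the other 2. In each of these contrasts 8 of the 9 genes were called, ELF3 being the exception. Between LNCaP and another line, 60.7% of the tested genes were called with DUCAP and 60.1% with VCAP, and 4 of the 9 genes in each case. With DU145 it was 55.9% and 5 of the 9, and with PC3 57.7% and 6 of the 9. DU145 differed from DUCAP in 66.6% and from VCAP in 65.4% of the tested genes, with 7 and 6 of the 9 called. PC3 differed from DUCAP in 67.8%, from VCAP in 67.6% and from DU145 in 49.3%, with 8, 8 and 5 of the 9 called. VCAP and DUCAP were the closest pair, with 18.3% of the tested genes and 1 of the 9 called, and that 1 was ETV1. The 3200 genes behind this share became 1319 and 1691 without DUCAP repeat 1 or 2, 1748 and 1900 without VCAP repeat 1 or 2, and 4955 and 4950 without DU145 repeat 1 or 2.

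**Figure D1:**
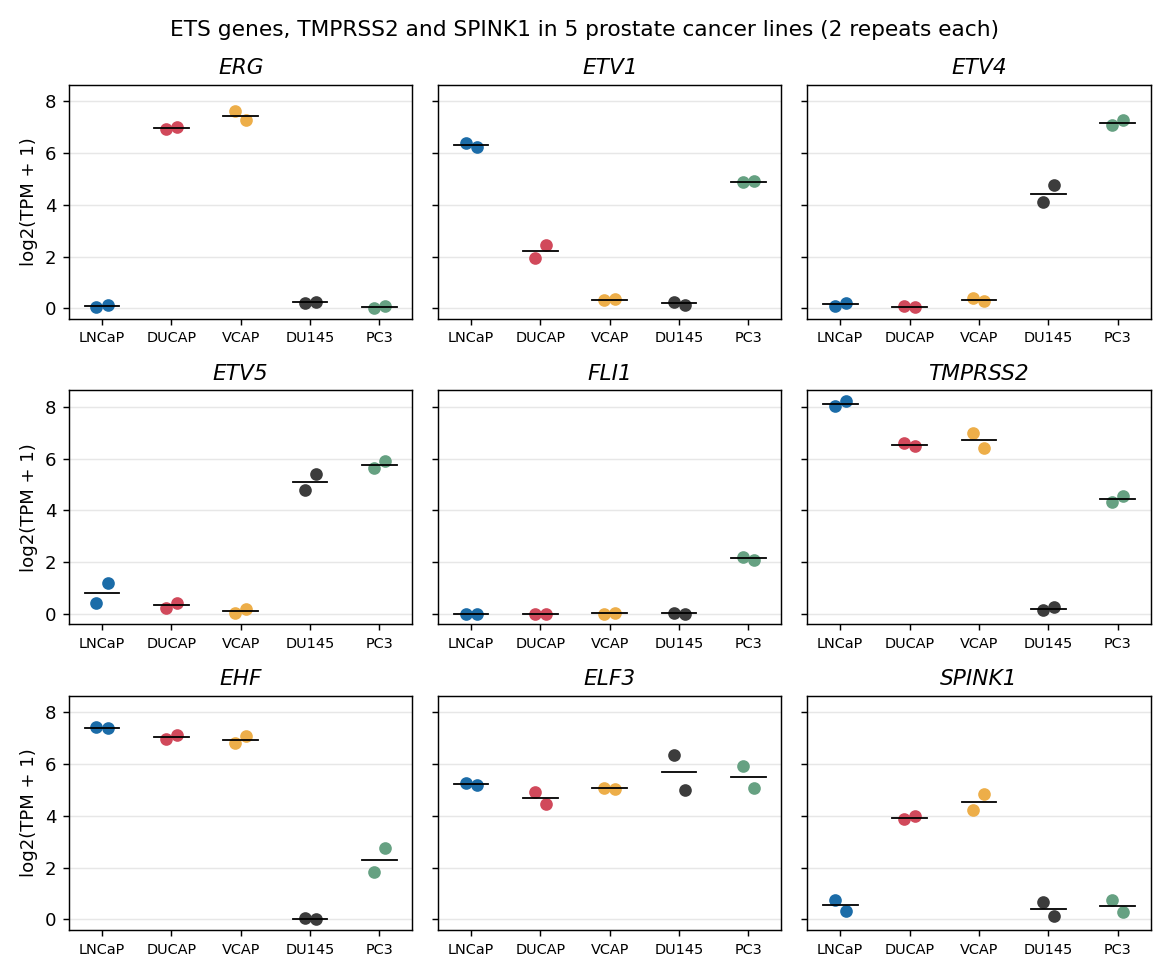
Level of each of the 9 genes on the log2(TPM + 1) axis for the 5 lines. Points are the 2 repeats and short lines their mean. ERG and SPINK1 are high in DUCAP and VCAP, ETV4 and ETV5 in DU145 and PC3, ETV1 in LNCaP and PC3, and ELF3 is present in all 10 samples.

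ERG was abundant in DUCAP and VCAP and near 0 elsewhere. ERG encodes an ETS factor normally found in endothelial and blood-forming cells. It lies on chromosome 21 from 38367261 to 38661783 (GRCh38.p14). Its level was 122.46 and 128.11 TPM in the DUCAP repeats and 198.92 and 153.33 TPM in VCAP. It was 0.03 and 0.10 TPM in LNCaP, 0.15 and 0.19 TPM in DU145, and 0.06 TPM or listed at 0 in PC3. The 4 samples of DUCAP and VCAP did not overlap with the other 6. DUCAP and VCAP exceeded the other lines by 7.10 on the log2 scale (standard error 0.11, adjusted p = 3.43e-09, limma). VCAP was above DUCAP by 0.48 ± 0.17 (standard error), and this difference missed the threshold (adjusted p = 0.0841). The neighbours at the low end, DU145 and LNCaP, differed by 0.14 (adjusted p = 0.519).

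FLI1, the closest relative of ERG and the gene rearranged in Ewing sarcoma, stood above 0.03 TPM in PC3 alone. Its level there was 3.62 and 3.27 TPM, and it was listed at 0 in both LNCaP and both DUCAP repeats. In the other samples it was at most 0.03 TPM. PC3 exceeded DU145 by 2.14 on the log2 scale (standard error 0.10, adjusted p = 1.15e-06, limma), and its difference from each of the other 3 lines also passed. ERG and FLI1 were thus never both above 1 TPM in the same sample.

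Because ERG and FLI1 mark endothelial and blood cells, markers of these cells were read beside them. In DUCAP and VCAP the summed TPM of the endothelial markers PECAM1, CDH5, VWF and KDR was 0.08 to 0.64, with CDH5 listed at 0 in all 4 samples. In PC3 the sum was 4.95 and 4.64, of which KDR, a receptor for vascular endothelial growth factor, gave 4.52 and 4.28, while CDH5 was listed at 0. In LNCaP it was 5.46 and 4.22, nearly all from VWF, and in DU145 0.36 and 0.16. Of the blood markers, PTPRC, CD34 and CD53 were at most 0.22 TPM in every sample. LCP1, by contrast, reached 121.50 TPM in LNCaP and 42.70 to 72.62 TPM in DUCAP and VCAP. In PC3 LCP1 was at 17.90 and 9.57 TPM, and in DU145 at 0.44 and 0.62 TPM. The epithelial markers EPCAM, KRT8, KRT18 and CDH1 were all above 1 TPM in all 10 samples, with a summed level of 537 to 2091 TPM.

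TMPRSS2 encodes a transmembrane serine protease of luminal prostate cells and was present in 4 of the 5 lines. It lies on chromosome 21 from 41464305 to 41508158. LNCaP had the highest level, 259.25 and 299.10 TPM. VCAP followed with 127.43 and 84.48 TPM and DUCAP with 95.81 and 87.91 TPM, so that the repeats of VCAP enclosed those of DUCAP. PC3 was at 18.86 and 22.70 TPM, and DU145 at 0.11 and 0.19 TPM. LNCaP, DUCAP and VCAP together exceeded DU145 and PC3 by 4.80 on the log2 scale (standard error 0.13, adjusted p = 2.45e-08, limma).

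Along the order of TMPRSS2 levels, VCAP was below LNCaP by a log2 difference of −1.42 (standard error 0.20, adjusted p = 0.000430, limma), where the median of all genes was −0.38. VCAP and DUCAP differed by 0.18, which did not pass (standard error 0.20, adjusted p = 0.640) and changed sign after median-ratio scaling and without VCAP repeat 1. PC3 was below DUCAP (−2.10) and above DU145 (4.24), and both differences passed. In the lines with ERG, the TPM of ERG divided by that of TMPRSS2 was 1.28 and 1.46 in DUCAP and 1.56 and 1.81 in VCAP.

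The stretch of chromosome 21 between ERG and TMPRSS2, 2802521 bases on GRCh38.p14, is lost in part of the tumours with the fusion. RefSeq places 16 protein-coding genes there, the ETS gene ETS2 among them, of which 15 were in the table and 14 were tested. In DUCAP and VCAP against the other lines, 4 were higher and 7 lower, with a median log2 fold change of −0.59, equal to that of all tested genes. The share called was near the 79.1% of all tested genes. After median-ratio scaling the counts were 6 and 5. FAM3B, which encodes a secreted cytokine-like protein, and PCP4, a calmodulin regulator, were the largest increases without overlap (4.33 and 2.51). FAM3B was at 20.59 to 38.10 TPM in DUCAP and VCAP and at most 1.14 TPM elsewhere. PCP4 was at 1.63 to 12.96 TPM and listed at 0 in the 6 other samples. The interferon-induced GTPase gene MX1 (−2.27) and the proteasome assembly chaperone gene PSMG1 (−1.82) were the largest decreases without overlap. ETS2 fell more (−2.35, adjusted p = 2.14e-06, limma), but its groups overlapped, with 2.72 to 5.86 TPM in DUCAP and VCAP and 5.13 to 113.56 TPM elsewhere. PSMG1 was at 19.48 to 24.72 TPM in DUCAP and VCAP and at 57.85 to 144.98 TPM elsewhere. None of the 15 genes was listed at 0 in all samples of DUCAP or of VCAP, although DSCAM did not exceed 0.66 TPM there. Transcript levels do not give copy number, so loss of the stretch was not tested.

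**Figure D2:**
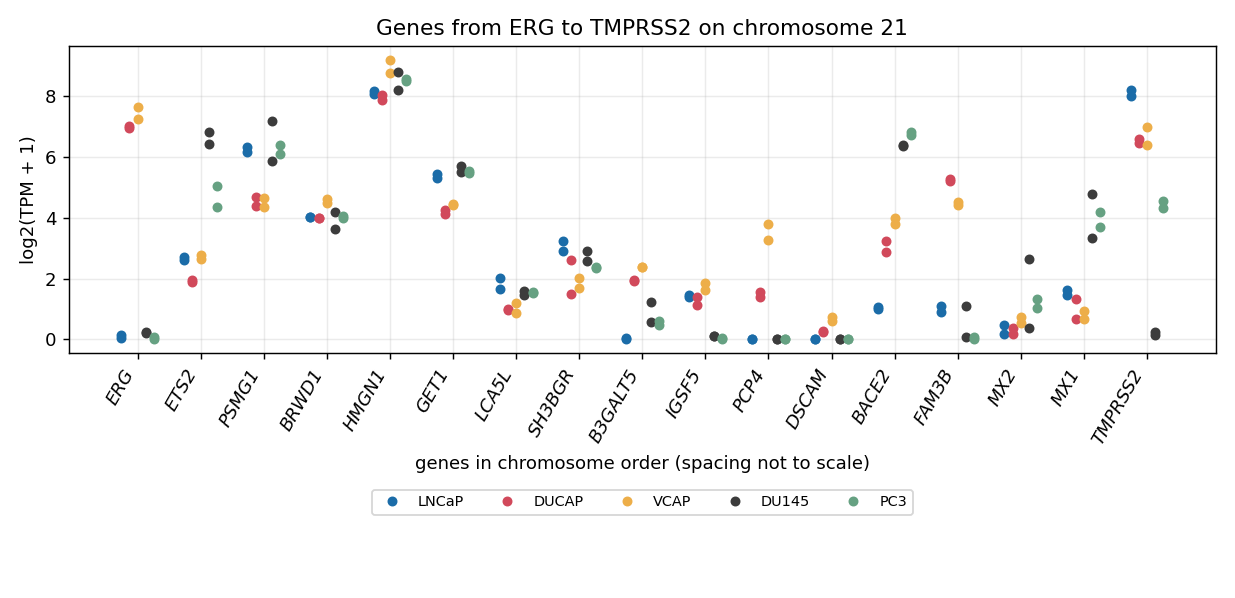
Levels of ERG, the 15 genes between ERG and TMPRSS2, and TMPRSS2 in chromosome order, as log2(TPM + 1), with 2 points per line. ERG, FAM3B and PCP4 are highest in DUCAP and VCAP, whereas TMPRSS2 is highest in LNCaP.

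Other genes known as the 5′ partner in ETS fusions were read in the same way. Of 8 such genes, 4 were higher and 1 lower in LNCaP, DUCAP and VCAP than in DU145 and PC3, and 6 were higher and 0 lower after median-ratio scaling. Over all tested genes 74.4% were called in this contrast, and 30.2% of the called genes were higher. KLK2, which encodes a prostate kallikrein, had the largest difference (10.42, standard error 0.16, adjusted p = 2.63e-09, limma). Its level was 4820.59 to 8172.09 TPM in VCAP, 2331.14 to 2482.40 TPM in DUCAP and 179.65 to 245.04 TPM in LNCaP, and it did not exceed 0.19 TPM in DU145 and PC3. SLC45A3, a prostate membrane transporter gene, was at 55.69 to 124.41 TPM in the first 3 lines and at 3.32 to 15.30 TPM in DU145 and PC3 (3.36, standard error 0.14, adjusted p = 1.95e-07). TMPRSS2 and SLC45A3 were thus higher in PC3 than in DU145 in every repeat, whereas KLK2 was near 0 in both.

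ETV1, a PEA3 group factor, was high in LNCaP and PC3. This gene lies on chromosome 7 from 13891229 to 13991425. Its level was 82.68 and 75.50 TPM in LNCaP, 28.20 and 29.37 TPM in PC3, 2.83 and 4.51 TPM in DUCAP, 0.25 and 0.27 TPM in VCAP, and 0.18 and 0.10 TPM in DU145. LNCaP is known for a rearrangement that moves ETV1 to another chromosome. PC3 was below LNCaP by a log2 difference of −1.43 (standard error 0.19, adjusted p = 0.000287, limma) and above DUCAP by 2.70 (adjusted p = 5.06e-06). DUCAP exceeded VCAP, with a log2 difference of VCAP against DUCAP of −1.87 (standard error 0.19, adjusted p = 0.000461). The high lines fell on both sides of the division into LNCaP, DUCAP and VCAP against DU145 and PC3. The difference there was 0.41 (adjusted p = 0.0152), with overlapping groups, and it missed the threshold without PC3 repeat 1 (0.40, adjusted p = 0.0512).

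ETV4, on chromosome 17 from 43527846 to 43546340, was most abundant in PC3. It was at 135.93 and 154.01 TPM in PC3 and at 16.12 and 26.24 TPM in DU145. In LNCaP, DUCAP and VCAP it did not exceed 0.30 TPM. PC3 exceeded DU145 by 2.75 on the log2 scale (standard error 0.22, adjusted p = 2.48e-05, limma), and DU145 exceeded VCAP by 4.11 (adjusted p = 1.46e-06). LNCaP, DUCAP and VCAP lay below DU145 and PC3 by a log2 difference of −5.63 (standard error 0.14, adjusted p = 1.80e-08).

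ETV5, on chromosome 3 from 186046314 to 186109089, was also highest in PC3 and then DU145, with a smaller gap between them. Its level was 48.68 and 59.29 TPM in PC3, 26.30 and 40.98 TPM in DU145, 0.32 and 1.26 TPM in LNCaP, and at most 0.35 TPM in DUCAP and VCAP. Repeat 2 was the higher in all 5 lines. The difference between PC3 and DU145 was 0.69 and did not pass (standard error 0.30, adjusted p = 0.0846, limma). It was 1.00 and passed without DU145 repeat 2 (adjusted p = 0.0275). DU145 exceeded LNCaP by 4.29 (standard error 0.30, adjusted p = 6.44e-06). The 3 PEA3 genes were all above 28 TPM in PC3, only ETV1 was above 2 TPM in LNCaP and DUCAP, and none reached 1 TPM in VCAP.

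PEA3 proteins are degraded through the COP1 ubiquitin ligase, ERG through SPOP, and CIC with its partner ATXN1 represses the genes ETV1, ETV4 and ETV5. Of 10 genes of this kind, 1 was higher and 8 lower in LNCaP, DUCAP and VCAP than in DU145 and PC3, where 74.4% of all tested genes were called and 30.2% of those were higher. These counts became 2 and 5 under quantile normalization, and likewise under median-ratio scaling. ATXN1 (−2.20) and CIC (−1.77) were the largest decreases without overlap. CIC was at 33.25 to 50.33 TPM in DU145 and PC3, the lines with ETV4 and ETV5, and at 6.99 to 18.35 TPM elsewhere. COP1, the 1 gene counted as higher before rescaling, was singled out after its values were seen. It was at 2.91 and 4.75 TPM in PC3, whereas the other lines ranged from 11.49 TPM in VCAP to 27.18 TPM in DU145. DU145 was the highest line for COP1, so its call as higher came from the low level in PC3. PC3 was lower than DU145 by a log2 difference of −2.51 (standard error 0.20, adjusted p = 2.48e-05, limma), and its differences from the other 3 lines, −2.28 to −1.55, passed as well. SPOP was at 23.54 to 60.02 TPM, lowest in DUCAP.

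ETV4 and ETV5 are also read as transcriptional output of the MAPK pathway, the growth factor cascade through RAF, MEK and ERK. The output list held 10 genes, ETV4 and ETV5 themselves among them. On average all 10 were lower in LNCaP, DUCAP and VCAP than in DU145 and PC3. The median log2 difference was −4.23 against −0.40 for all tested genes. Of these, 74.4% were called, and 30.2% of the called genes were higher. ETV4 (−5.63) and ETV5 (−5.02), which passed the filter only through DU145 and PC3, enter both the count and the median. Neither is therefore separate support for the difference of ETV4 and ETV5. Some groups overlapped. EPHA4 was at 2.31 and 2.99 TPM in VCAP and at 1.01 to 2.50 TPM in DU145 and PC3. DUSP4 was at 5.26 and 6.39 TPM in LNCaP and at 7.83 and 4.45 TPM in DU145. Under quantile normalization 9 of the 10 were lower, as under median-ratio scaling. The largest were EPHA2, an ephrin receptor kinase gene (−6.41, standard error 0.18), and PHLDA1 (−6.21, standard error 0.10), with adjusted p of 2.59e-08 and 2.56e-09 (limma). EPHA2 was at 280.06 and 271.22 TPM in PC3, 56.25 and 108.42 TPM in DU145, and at most 2.33 TPM elsewhere. PHLDA1 was at 87.15 to 98.77 TPM in DU145 and PC3 alike and at most 0.62 TPM elsewhere. DUSP4 and SPRY4, feedback inhibitors of the pathway chosen after their values were seen, stood out in PC3. DUSP4 was at 141.23 and 134.70 TPM there and at most 7.83 TPM in the other lines, and SPRY4 at 103.20 and 141.63 TPM against at most 3.97 TPM.

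**Figure D3:**
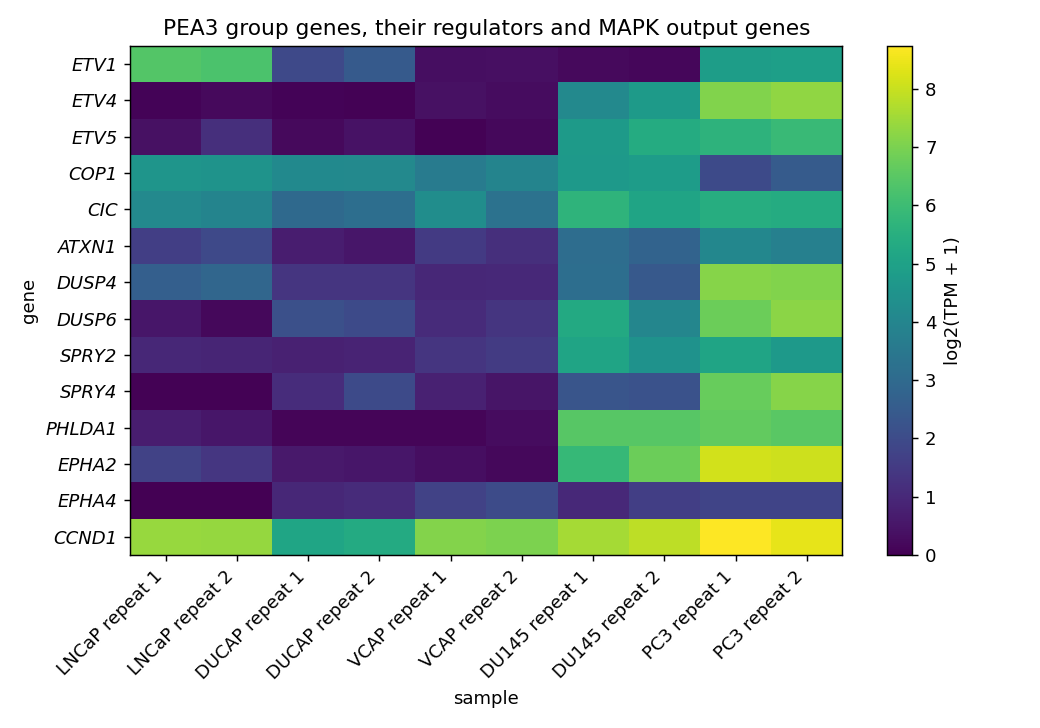
Heatmap of log2(TPM + 1) for ETV1, ETV4 and ETV5, the regulators COP1, CIC and ATXN1, and 8 other MAPK output genes in the 10 samples. ETV4, ETV5, EPHA2 and PHLDA1 are high in the 4 samples of DU145 and PC3, and COP1 is lowest in PC3.

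EHF, an epithelial ETS factor on chromosome 11 (34621093 to 34663288), was high in LNCaP, DUCAP and VCAP. Its level was 170.28 and 169.67 TPM in LNCaP, 123.08 and 138.42 TPM in DUCAP, and 112.68 and 134.17 TPM in VCAP. PC3 had 2.52 and 5.81 TPM, and DU145 0.02 TPM in repeat 1 and a listing at 0 in repeat 2. The 3 high lines exceeded DU145 and PC3 by 5.98 on the log2 scale (standard error 0.18, adjusted p = 3.07e-08, limma). Within them, neighbours did not differ beyond their spread. The difference was −0.38 for DUCAP against LNCaP (standard error 0.27, adjusted p = 0.267) and −0.09 for VCAP against DUCAP (standard error 0.27, adjusted p = 0.912). The former was positive after quantile normalization and median-ratio scaling. PC3 exceeded DU145 by 2.28 (adjusted p = 0.000227).

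ELF3, on chromosome 1 from 202010587 to 202017183, was expressed in every sample and differed least. It was at 37.15 and 35.23 TPM in LNCaP, 29.00 and 20.70 TPM in DUCAP, 32.70 and 32.05 TPM in VCAP, 81.54 and 31.13 TPM in DU145, and 59.55 and 33.12 TPM in PC3. The repeats of DU145 enclosed all samples of LNCaP, VCAP and PC3, and repeat 1 was the higher in all 5 lines. The standard error of a pairwise log2 difference was 0.43, against 0.10 to 0.30 for the other 8 genes. No pair of lines passed the threshold. The largest difference was 1.01 between DU145 and DUCAP (adjusted p = 0.0645, limma). LNCaP, DUCAP and VCAP differed from DU145 and PC3 by −0.61 (standard error 0.27, adjusted p = 0.0726), and this passed without DU145 repeat 2 (−0.95, adjusted p = 0.00232) and without PC3 repeat 2 (−0.82, adjusted p = 0.0401).

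EHF and ELF3, both epithelial factors, thus differed in how much they varied. The line means of EHF spanned 7.40 on the log2 scale, as did those of ERG (7.41), ETV4 (7.13) and TMPRSS2 (7.93). Those of ETV1 spanned 6.13, of ETV5 5.66, of SPINK1 4.13, of FLI1 2.15 and of ELF3 1.01.

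The ETS family as a whole was then set out within each sample, since TPM of different genes are comparable per length. The 28 ETS genes summed to 418 to 696 TPM per sample, and 16 to 20 of them were at 1 TPM or more. ERG made up 29.3 and 29.1% of the sum in DUCAP and 36.1 and 30.4% in VCAP. EHF was the largest part in LNCaP (32.5 and 33.3%) and in DUCAP (29.4 and 31.4%), there just above ERG in both repeats. ETV1 was 15.8 and 14.8% in LNCaP, and ETV4 19.5 and 22.1% in PC3. SPDEF, an ETS factor of luminal prostate cells, was 11.7 to 17.3% in LNCaP, DUCAP and VCAP, 19.1 and 22.2% in PC3, and 3.27 and 1.18% in DU145. DU145 was without a dominant member of the fusion group. ETS2 was its largest part (21.7 and 18.8%), followed by ELF3 in repeat 1 (15.6%) and ETS1 in repeat 2 (15.0%), with ERF at 10.7 and 10.8%.

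**Figure D4:**
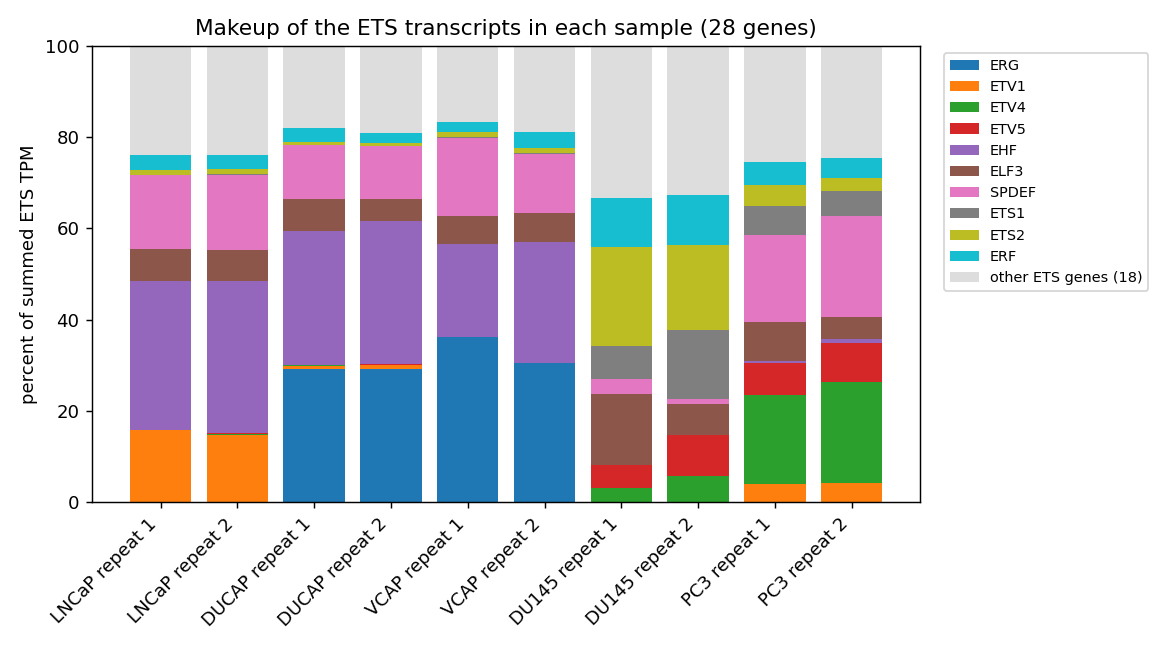
Stacked bars of each ETS gene as a percent of the summed TPM of the 28 ETS genes, 1 bar per sample. ERG is 29.1 to 36.1% in DUCAP and VCAP, ETV1 about 15% in LNCaP and ETV4 about 20% in PC3, and ETS2 is the largest part in DU145.

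Of the 28 ETS genes 23 were tested, and 6 were higher and 13 lower in LNCaP, DUCAP and VCAP than in DU145 and PC3. This lay near the background of 74.4% called, of which 30.2% were higher. Quantile normalization gave a split of 10 and 9, median-ratio scaling 8 and 10, and the omission of mitochondrial genes 7 and 11. Outside the 9 genes, ELF5 (2.35) and FEV (1.57), a neuronal ETS factor, were the largest increases without overlap, although both were low in TPM. ELF5 was at 2.58 to 6.38 TPM in LNCaP, DUCAP and VCAP and listed at 0 in DU145 and PC3. ETS1 (−4.97), a factor of lymphoid and invasive cells, and ELF4 (−3.41) were the largest decreases without overlap. ETS1 was at 37.20 to 68.95 TPM in DU145 and PC3 and at most 0.94 TPM elsewhere. ETV3L was listed at 0 in all 10 samples.

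SPINK1, a Kazal-type trypsin inhibitor gene on chromosome 5 (147824582 to 147839196), was highest in the lines with ERG. It was at 17.60 and 27.50 TPM in VCAP and at 13.76 and 14.78 TPM in DUCAP. The other samples lay between 0.10 and 0.69 TPM, without overlap. DUCAP and VCAP exceeded the other lines by 3.75 on the log2 scale (standard error 0.18, adjusted p = 5.03e-07, limma). VCAP was above DUCAP by 0.59, which did not pass (standard error 0.28, adjusted p = 0.197). DUCAP was above LNCaP by 3.40 (standard error 0.28, adjusted p = 2.27e-05).

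Of the 10 genes of the SPINK family listed, 3 were tested, and SPINK6, SPINK7 and SPINK14 were listed at 0 in every sample. SPINK5, chosen after its values were seen, was also highest in DUCAP and VCAP, at 3.80 to 5.23 TPM against at most 1.54 TPM. SPINK2, chosen in the same way, was highest in DU145 at 7.67 and 4.49 TPM. The trypsinogens PRSS1, PRSS2 and PRSS3 are near-identical genes between which reads can be split, so that their separate levels are uncertain. All 3 were tested and called in LNCaP, DUCAP and VCAP against DU145 and PC3, where 74.4% of all tested genes were called. On average 1 was higher and 2 were lower. The higher gene was PRSS1, through LNCaP alone, at 2.84 and 6.64 TPM there and at most 0.11 TPM in the other 4 lines. PRSS2 was the decrease without overlap (−0.74), at 0.14 to 1.93 TPM in DU145 and PC3. PRSS3, which encodes mesotrypsin and was singled out after its values were seen, was at 384.26 and 457.67 TPM in PC3 and at most 13.13 TPM elsewhere.

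Genes known to be raised with ERG in prostate tumours, listed with earlier results of these data known, were followed in the lines. Of 10 such genes, 9 were higher and 0 lower in DUCAP and VCAP, with a median log2 fold change of 3.82 against −0.59 for all tested genes. In this contrast 79.1% of the tested genes were called, and 21.6% of those were higher. On average all 10 were higher after each of the 3 rescalings, including AMPD3 and KCNS3, whose groups overlapped. CRISP3, a secreted protein of the male tract, had the largest change (8.52, standard error 0.08, adjusted p = 7.66e-10, limma). It was at 920.63 and 907.01 TPM in DUCAP, 333.05 and 348.02 TPM in VCAP, and at most 2.36 TPM elsewhere. LEF1, a transcription factor of the WNT pathway, was at 230.98 to 276.27 TPM in the lines with ERG and at most 1.11 TPM elsewhere (7.30, standard error 0.10, adjusted p = 3.43e-09). TDRD1 was at 21.36 to 28.47 TPM and PLA1A at 56.25 to 70.83 TPM in these lines, and at most 0.55 and 1.93 TPM elsewhere; both were picked out after their values were seen. AMPD3 did not pass in the TPM as deposited (0.16, adjusted p = 0.221, limma). It was at 3.74 to 6.81 TPM in DUCAP and VCAP and at 0.08 and 0.21 TPM in LNCaP. In DU145 AMPD3 was at 5.96 and 6.10 TPM, and it was highest in PC3, at 15.47 and 18.68 TPM. KCNS3, counted as higher, overlapped between the groups, at 3.83 to 8.59 TPM in DUCAP and VCAP and at 8.36 and 9.49 TPM in DU145. DUCAP and VCAP share their origin, so that the presence of ERG and any other property common to these lines cannot be told apart.

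**Figure D5:**
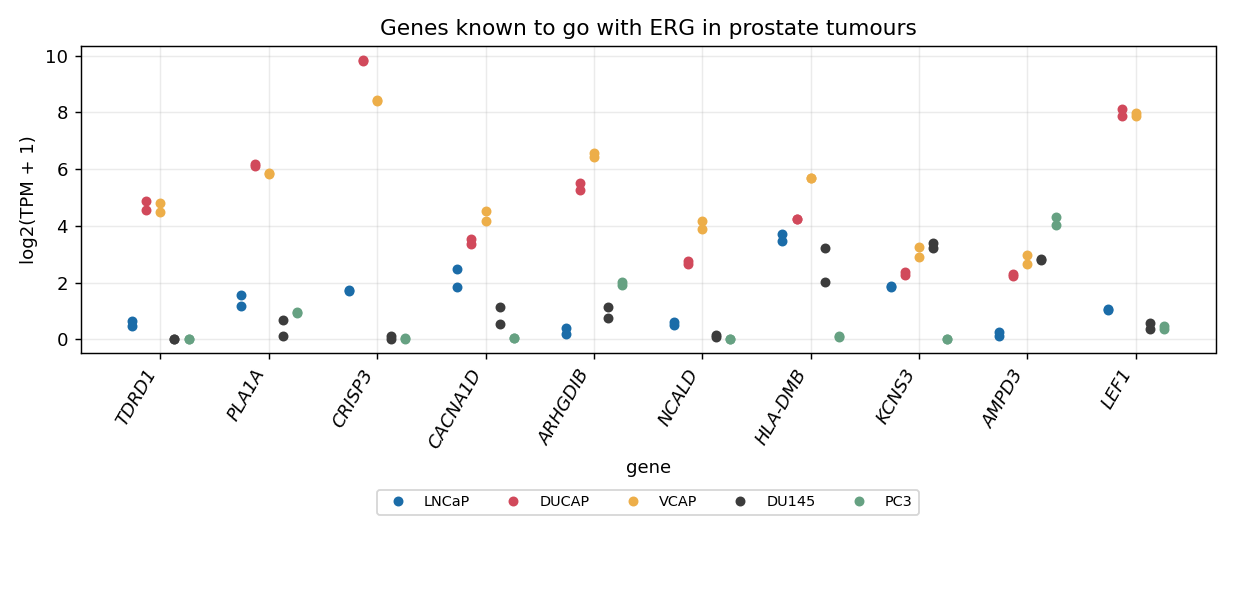
Levels of the 10 genes known to go with ERG in prostate tumours, as log2(TPM + 1), with 2 points per line. CRISP3 and LEF1 are far higher in DUCAP and VCAP than in LNCaP, DU145 and PC3, and AMPD3 is highest in PC3.

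Finally, the genes whose levels ran most closely with each of the 9 over the 10 samples were listed, out of 11088 tested genes whose highest line mean was at least 10 TPM. The measure was Pearson's r of log2(TPM + 1). The samples are 5 pairs of repeats, so r mostly reflects the pattern of the lines, and many genes share a pattern. For ERG the closest were RIMBP2, TRGV9 and GUCA2A (r = 0.999 each), and 100 genes had r of at least 0.95. For SPINK1 they were LNX1 (0.996), ZNF385B (0.995) and KMT5B (0.993). TMPRSS2 ran with ARSD (0.992), LCP1 (0.987) and PCAT1 (0.985), and 22 genes reached 0.95. EHF ran with KLK4 (0.994), MGST2 (0.991) and PRKCD (0.988). ETV4 was closest to DKK1 (0.999), P2RY2 (0.998) and APOBEC3C (0.997), and ETV5 to CCNJL, S100A16 and SYDE1 (0.996 each), with 296 and 390 genes at 0.95 or more. ETV1 was closest to TNFRSF19 (0.989), PRDX2 (0.986) and AL589743.1 (0.983). FLI1 was closest to CDH11, SNHG18 and AL117378.1 (at least 0.999). For ELF3 the closest were JUNB (0.898), P2RX4 (0.878) and SLPI (0.873), and no gene reached 0.95.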

How the data were processed

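Untreated cells of 5 prostate cancer lines were profiled in 2 biological repeats each. Line and repeat were taken from the sample titles. Per the labels and the submitters' processing notes, the authors assessed reads with FastQC 0.11.9, trimmed them with Trim Galore 0.6.5, aligned them with STAR 2.7.2b to GRCh38 and quantified genes with RSEM 1.3.3. They deposited TPM per sample, without pooling, for 60642 gene symbols.

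TPM were transformed to log2(TPM + 1). The 17520 genes that reached 1 TPM in 2 or more samples entered a single fit of all 10 samples (limma 3.58.1, R 4.3.3) with a mean for each line and an intensity trend for the prior. From it, 2 group contrasts and 10 pairs of lines were read, adjusted by Benjamini-Hochberg with a threshold of 0.05. The fit was tested on simulated data. Alternatives were a pseudocount of 0.1, no filter, 3 rescalings, no trend, the repeat number as a covariate and each sample left out. From each gene list, the 2 largest called changes in each direction without overlap were named. Members, lists and tests were chosen with earlier results of these data known. P-values rest on the spread between 2 repeats of these lines. Repeats are labelled biological, and their separate cultures are not described further. Positions and promoter windows came from RefSeq tables of GRCh38.p14, matched by symbol. Python 3.11.15, numpy 2.4.6, pandas 2.3.3 and matplotlib 3.10.9 were used.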

Additional observations from a re-analysis of the deposited data

How the results depend on the processing

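The numbers of genes called in the 2 group contrasts and in 9 of the 10 pairs of lines stayed within 1.5 times under all 17 alternatives. For VCAP against DUCAP the 3200 called genes became 1319 to 4955 when a sample was left out, with fewer without any DUCAP or VCAP sample and more without either DU145 repeat (4955 and 4950); it was 1319 and 1691 without DUCAP repeat 1 and 2, and 1748 and 1900 without VCAP repeat 1 and 2. Of the 90 gene differences examined, those with a sign change did not pass the threshold in either form. ELF3 in DUCAP and VCAP against the other lines became 0.0828 under quantile normalization and 0.0613 under median-ratio scaling. ELF3 in VCAP against LNCaP became 0.37, 0.38 and, without mitochondrial genes, 0.15. EHF in DUCAP against LNCaP was 0.30 and 0.39, and TMPRSS2 in VCAP against DUCAP was −0.0420 after median-ratio scaling. When samples were left out, ELF3 ranged from −0.12 to 0.70 in PC3 against LNCaP and from −0.86 to 0.50 in PC3 against DU145, TMPRSS2 from −0.12 to 0.47 and EHF from −0.21 to 0.0394 in VCAP against DUCAP. The causes were not tested. SPOP and LCA5L missed the threshold under either quantile or median-ratio scaling, and ETV6 after quantile normalization. When repeat number entered the fit as a replicate block, 13836 and 13007 genes were called in the group contrasts, and ELF3 in both contrasts (adjusted p of 0.0263 each) and ETV5 in PC3 against DU145 (adjusted p of 0.0267) passed. Over all tested genes, the deviations of same-numbered repeats of different lines had a mean r of 0.00922, from −0.191 to 0.249. This mean cannot show a batch shared by only some lines or genes, which was not tested. Without counts, the depth limits the low values to an unknown degree.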
